A study of Mus musculus with 24 samples.

Results

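The genes described here are 10 genes that mark dividing progenitors and newborn neurons of the embryonic cortex: Dcx, Tubb3, Tuba1a, Stmn2, Fabp7, Pax6, Eomes, Nes, Sox2 and Vim. They were chosen by name. All 10 were found by symbol among the 23871 genes of the poly(A)-site sequencing (PAPERCLIP) tables, and all 10 by Ensembl identifier among the 47069 genes of the RNA-seq tables. The values follow them through tagged astrocytes and neurons of the cortex, through the cortex of Ptbp2-knockout embryos and through microglia.

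The series holds 24 mouse libraries. In cTag-PAPERCLIP a Cre recombinase turns on a poly(A)-binding protein fused to GFP, and mRNA crosslinked to that protein is pulled from whole tissue with antibodies to GFP. Recombination is permanent, so a cell carries the tag once its Cre has been active. Cortex was taken from lines with Gfap-Cre for astrocytes, Gad2-Cre for inhibitory neurons and Camk2a-Cre for excitatory neurons, in 2 libraries each. Whole brain was taken from the tagged Cx3cr1-Cre line for microglia, with 3 libraries of mice given lipopolysaccharide (LPS), a component of bacterial outer membranes, at a dose not given in the sources used here, 3 of mice given PBS and 2 of untreated mice. Liver labelled CL57/B6J gave 1 PAPERCLIP library. The labels give no age for these animals. RNA-seq came from CD11b-selected microglia of wild-type C57BL/6 adults injected daily for 4 days with LPS at 1 mg/kg (3 libraries) or with PBS (3 libraries), with 2 brains in each tube. It also came from the cortex of Ptbp2-knockout embryos at E18.5, in 3 libraries that the labels call biological replicates. No wild-type embryonic cortex is among the samples, so the knockout libraries stand as a description. Levels are CPM, a count scaled to the total of its library, and are not per gene length, so they are compared between libraries and not between genes.

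The cortical PAPERCLIP libraries held 630475 to 2005627 counts, the Cx3cr1 libraries 133456 to 1041245, the liver library 115734 and the microglial RNA-seq libraries 1250170 to 2133407. Markers went with the labels: 6 inhibitory neuron markers summed to 3985 and 4493 CPM in Gad2 libraries and at most 48.0 CPM in the other cortical libraries, and 6 excitatory neuron markers to 5051 and 5073 CPM in Camk2a libraries and at most 612 CPM in the others. Intervals and limits from counts cover counting error only.

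In the embryonic cortex, radial glia divide next to the ventricle and make neurons directly or through intermediate progenitors. Pax6 and Sox2 are transcription factors of radial glia, Eomes (also called Tbr2) is the transcription factor of intermediate progenitors, and Nes, Vim and Fabp7 are cytoskeletal or lipid-carrying genes of radial glia. Newborn neurons turn on Dcx, a microtubule-associated protein of migrating neurons, together with the tubulins Tubb3 and Tuba1a and with Stmn2, which regulates microtubule growth. Astrocytes arise from radial glia, and several radial glia genes are known to stay on in them.

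Promoters are shown for the 4 members that were higher in the Gfap libraries than in the neuronal ones and for Tubb3, which was lower, because these genes differed in opposite directions. Each sequence is the 150 bases before the RefSeq start, 5′ to 3′ on the gene's strand, in build GRCm38.p6. Capitals mark TATAA or CCAAT and their reverse complements, TTATA and ATTGG, and overlapping matches were merged. Fabp7 lies at chr10:57784773-57784922, Pax6 at chr2:105668746-105668895, Sox2 at chr3:34649845-34649994, Vim at chr2:13574161-13574310 and Tubb3 at chr8:123411403-123411552, all on the plus strand. Of 2 RefSeq starts of Pax6 the upstream one is shown.
Fabp7: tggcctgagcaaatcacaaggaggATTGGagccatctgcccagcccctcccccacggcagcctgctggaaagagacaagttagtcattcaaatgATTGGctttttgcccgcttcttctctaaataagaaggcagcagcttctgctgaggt
Pax6: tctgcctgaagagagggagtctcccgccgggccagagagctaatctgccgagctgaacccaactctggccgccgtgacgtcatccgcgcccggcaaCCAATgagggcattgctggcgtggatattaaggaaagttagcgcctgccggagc
Sox2: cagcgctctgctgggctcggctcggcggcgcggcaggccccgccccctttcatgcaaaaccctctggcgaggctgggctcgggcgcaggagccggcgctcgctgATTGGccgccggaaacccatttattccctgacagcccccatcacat
Vim: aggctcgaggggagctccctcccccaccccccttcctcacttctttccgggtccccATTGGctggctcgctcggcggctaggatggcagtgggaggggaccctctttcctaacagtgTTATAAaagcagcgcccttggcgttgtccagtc
Tubb3: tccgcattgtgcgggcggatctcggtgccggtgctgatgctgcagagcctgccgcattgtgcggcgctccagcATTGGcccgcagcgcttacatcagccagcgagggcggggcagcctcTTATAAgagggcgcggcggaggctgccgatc
CCAAT was found in 6 of the 9 members with a RefSeq entry (these 5 and Eomes), and TATAA in 5 (Vim, Tubb3, Eomes, Tuba1a and Dcx). Among 32851 RefSeq promoters cut to the same length, 24.5% held CCAAT and 14.2% held TATAA. Both motifs stood in 3 members, Vim, Tubb3 and Eomes, and Vim and Tubb3 lay on opposite sides of the comparison between Gfap and neuronal libraries. Stmn2 had no entry.

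Across the cortical libraries the radial glia members that were called and the newborn neuron members that were called went in opposite directions. Pax6, Sox2, Fabp7 and Vim were higher in Gfap libraries than in the mean of the Camk2a and Gad2 libraries, Dcx, Tubb3 and Stmn2 were lower, and Tuba1a did not pass the test. Of the 10 members 8 passed the filter on low counts, and the other two, Eomes and Nes, had at most 7 counts over any cortical group. The filter asks for counts in only 2 libraries. A gene scarce in all other groups, such as Pax6 or Fabp7, thus passed through the Gfap libraries alone and could only come out higher there. The test was edgeR's quasi-likelihood test with Benjamini-Hochberg adjustment over 9421 genes, and a gene was called at an adjusted p of at most 0.05. Of all genes tested, 31.3% were called higher in Gfap libraries and 29.3% lower, so calls as such were common and the members are described by their size. The median log2 difference of all genes was 0.00.

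Pax6 (ENSMUSG00000027168, chr2:105668896-105698410) stood at 48.7 and 42.9 CPM in the Gfap libraries. In the Gad2 libraries it had 1.59 and 1.05 CPM, 1 count in each, and no count in either Camk2a library. The Gfap libraries lay far above all 4 neuronal ones, with a log2 difference of 6.98 (SE 0.53, adjusted p = 5.33e-09). Counted over the groups, Pax6 was at least 66.4-fold higher in Gfap than in Camk2a libraries, taking 3 counts over the Camk2a group as the limit, and 40.7 times the Gad2 level with a 95% counting interval of 11.0 to 340.4. Pax6 overlaps Pax6os1 and Elp4, and whether the counting used strand is not given in the sources used here, so reads of these genes may be mixed.

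Sox2 (ENSMUSG00000074637, chr3:34649995-34652461) showed a graded pattern. It reached 833 and 922 CPM in the Gfap libraries, 214 and 286 CPM in the Gad2 libraries, and 6.98 and 5.46 CPM in the Camk2a libraries. The 3 groups did not overlap, and on the log scale the Gad2 level was nearer to the Gfap level than to the Camk2a level. Gfap exceeded Gad2 by 2.03 on the log2 scale (SE 0.25, adjusted p = 2.24e-06) and Camk2a by 7.34 (SE 0.35, adjusted p = 1.31e-11), and these comparisons share the Gfap libraries.

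Eomes (ENSMUSG00000032446, chr9:118478186-118486132) was barely seen in any cortical group. It had 1 count (1.25 CPM) and 6 counts (3.43 CPM) in the Gfap libraries and none in the 4 neuronal libraries. Taking the Gfap counts as exact, the Gfap level was at least 5.75-fold higher against 3 counts over the neuronal group. Against 3 counts over the Gad2 libraries alone the limit was 1.67-fold. The error of the few Gfap counts is not in these limits. Without the filter the log2 difference had an SE of 1.60 and an adjusted p of 0.0101 in edgeR's test, which rests on 7 counts.

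Fabp7, the brain fatty acid-binding protein (ENSMUSG00000019874, chr10:57784923-57788450), had 494 and 756 CPM in the Gfap libraries. It had 1.59 and 1.05 CPM in the Gad2 libraries and 3.99 and 6.55 CPM in the Camk2a libraries. All neuronal libraries were near the bottom of the scale, and the log2 difference of Gfap libraries from neurons was 8.07 (SE 0.31, adjusted p = 2.14e-13). As for Pax6, passing the filter rested on the Gfap libraries, so the direction of this call was fixed. Against the 2 counts of the Gad2 libraries the ratio was 614, with a 95% counting interval of 170 to 5073.

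Vim, the intermediate filament vimentin (ENSMUSG00000026728, chr2:13574311-13582826), had 425 and 547 CPM in the Gfap libraries. Gad2 libraries had 0 and 6.31 CPM, and Camk2a libraries 2.49 and 0.55 CPM. The log2 difference of Gfap libraries from neurons was 7.80 (SE 0.35, adjusted p = 8.53e-13). Nes, the intermediate filament nestin (ENSMUSG00000004891, chr3:87971093-87980451), had 1 count in 1 Gfap library, 1 count in 1 Camk2a library and none in the other 4. Nes thus stayed under 3 counts, the limit that a count of 0 allows, in each cortical library, which is at most 4.76 CPM at these depths.

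Among the newborn neuron genes, Dcx (ENSMUSG00000031285, chrX:143855842-143933396) was read in all 6 cortical libraries. It had 11.2 and 12.6 CPM in the Gfap libraries, 34.9 and 40.0 CPM in the Gad2 libraries and 37.4 and 26.7 CPM in the Camk2a libraries. The Gfap libraries lay below every neuronal library, by 1.30 on the log2 scale (log2 difference -1.30, SE 0.33, adjusted p = 0.00218), the smallest called difference among the members. Against Camk2a libraries alone the difference was -1.18 (adjusted p = 0.00716), and that call was lost without Gfap replicate 2 (adjusted p = 0.0801) or without Camk2a replicate 1 (adjusted p = 0.123).

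Tubb3, the neuronal beta-tubulin (ENSMUSG00000062380, chr8:123411553-123422015), had 73.7 and 80.0 CPM in the Gfap libraries. It had 866 and 708 CPM in the Gad2 libraries and 525 and 578 CPM in the Camk2a libraries. The log2 difference of Gfap libraries from neurons was -2.87 (SE 0.25, adjusted p = 1.26e-08). Stmn2 (ENSMUSG00000027500, chr3:8509527-8561604) had 23.7 and 15.4 CPM in the Gfap libraries, 165 and 159.9 CPM in the Gad2 libraries and 354 and 295 CPM in the Camk2a libraries. It gave the most negative value of the members, -3.40 (SE 0.29, adjusted p = 6.74e-09).

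Tuba1a, an alpha-tubulin abundant in young neurons (ENSMUSG00000072235, chr15:98949847-98953501), stood apart from the other newborn neuron genes. It had 159 and 235 CPM in the Gfap libraries, 138 and 183 CPM in the Gad2 libraries and 224 and 229 CPM in the Camk2a libraries. In CPM the Gfap libraries overlapped with both neuronal groups, and in normalised CPM with the Camk2a libraries but not with the Gad2 libraries. Gfap libraries differed from neurons by 0.28 on the log2 scale (SE 0.20, adjusted p = 0.247). Against Gad2 libraries alone the value was 0.52 (SE 0.24, adjusted p = 0.0824), which passed the test without Gfap replicate 1 (0.70, adjusted p = 0.0485) and in a fit of the 6 cortical libraries alone (0.54, adjusted p = 0.0323). Tuba1a has near-identical copies, Tuba1b and Tuba1c, and how reads that match several of them were counted is not given in the sources used here.

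Tested against each neuronal group alone, the split was the same in number: 4 members higher and 3 lower. For Gfap against Camk2a libraries 30.4% of all genes were called higher and 29.8% lower, and for Gfap against Gad2 libraries 27.5% higher and 25.5% lower. In these bulk pulldowns, fewer cells of a type and less RNA per cell cannot be told apart.

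**Figure D1:**
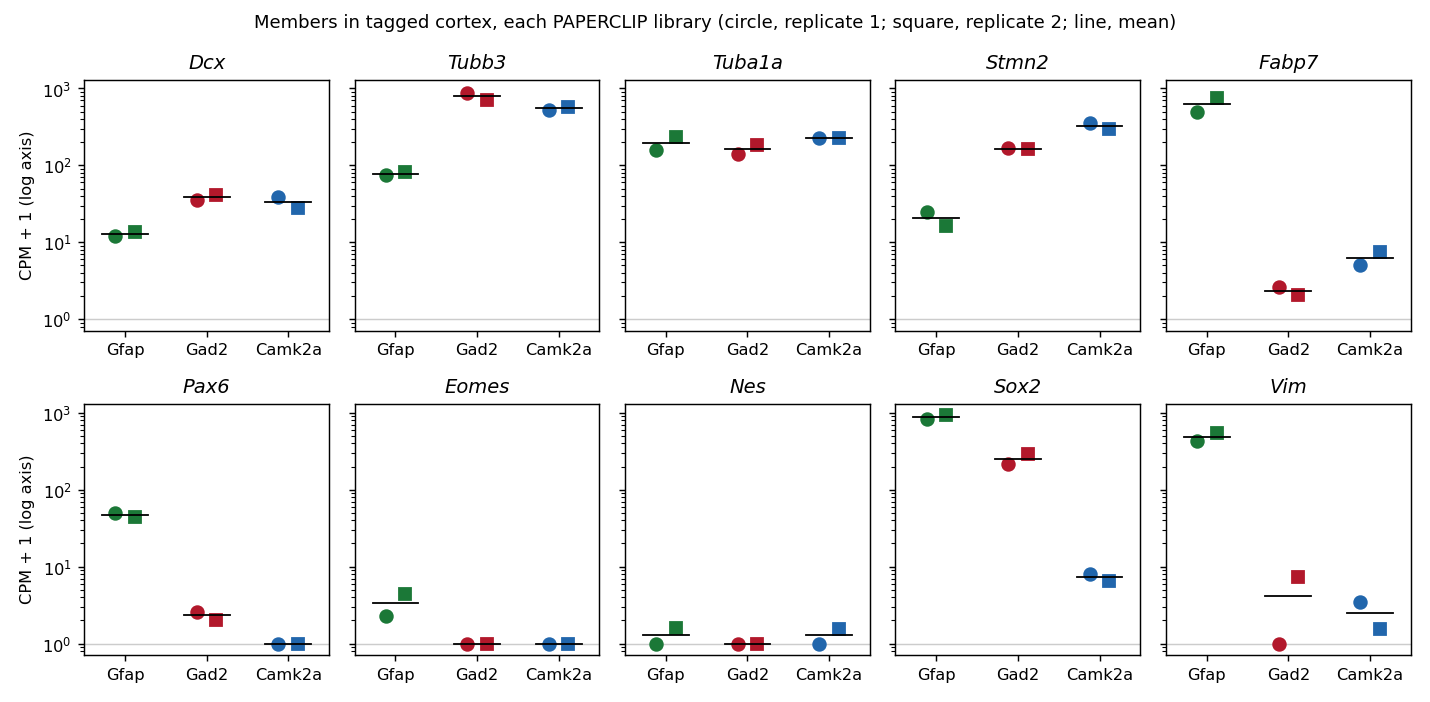
Levels of the 10 members in each cortical PAPERCLIP library, as CPM + 1 on a log axis, with circles for replicate 1, squares for replicate 2 and a line at the mean of each group. Fabp7, Pax6 and Vim are high in the Gfap libraries and near 0 in the others, Sox2 is also high in the Gad2 libraries, and Tubb3, Stmn2 and Dcx are lowest in the Gfap libraries.

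The Gfap libraries carried markers of other cells beside those of astrocytes. The 8 astrocyte markers summed to 20759 and 23850 CPM in them, and the 8 mature neuron genes to 1066 and 1724 CPM, against 11063 to 12791 CPM in the neuronal libraries. Nefl was the single mature neuron gene without a count there. The 8 oligodendrocyte markers summed to 1245 CPM in Gfap replicate 1 and 9555 CPM in replicate 2, the 5 oligodendrocyte precursor markers to 127 and 446 CPM, and the 5 ependymal markers to 82.4 and 225 CPM, each with every gene of its list detected. Of the members, Pax6 and Stmn2 were higher in replicate 1 and the other 8 in replicate 2. The part of these cells in the members' levels was not tested. The 7 calls of Gfap libraries against neurons were also made without either Gfap replicate, and each replicate holds these markers.

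**Figure D2:**
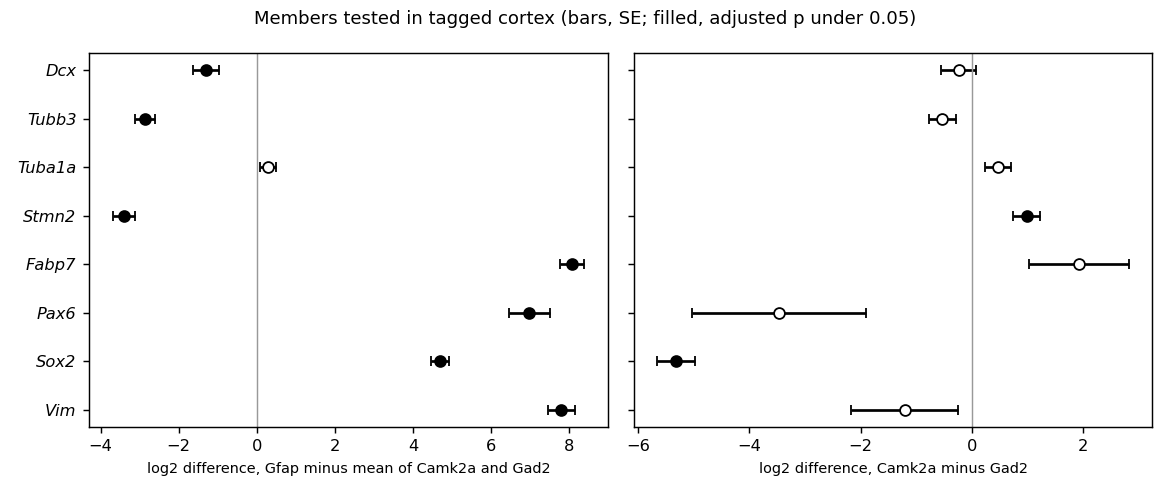
Log2 differences of the 8 tested members, Gfap minus the mean of Camk2a and Gad2 libraries (left) and Camk2a minus Gad2 (right), with bars for 1 SE and filled points for an adjusted p under 0.05. On the left 4 filled points lie above 0 and 3 below, and on the right Stmn2 (above 0) and Sox2 (below 0) are filled.

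Between the neuronal groups 2 members differed. Stmn2 was higher in Camk2a libraries by 0.99 on the log2 scale (SE 0.24, adjusted p = 0.00579), and Sox2 was lower there by far (log2 difference -5.31, SE 0.34, adjusted p = 4.23e-09). Of all genes 11.6% were called higher in Camk2a libraries and 9.6% lower. Dcx (-0.24, adjusted p = 0.652) overlapped between the groups, while Tubb3 (-0.53, SE 0.24, adjusted p = 0.137) and Tuba1a (0.47, SE 0.24, adjusted p = 0.181) did not overlap but missed the threshold. Stmn2 missed the threshold when any of 3 libraries was left out: Gad2 replicate 1 (adjusted p = 0.0632) or 2 (0.104), or Camk2a replicate 1 (0.126). Tubb3 was called lower in a fit of the 6 cortical libraries alone (-0.56, adjusted p = 0.0286).

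Genes high in Gfap libraries took either order in the neuronal groups beside Sox2. The 8 astrocyte markers summed to 254 and 286 CPM in Gad2 libraries and to 611 and 629 CPM in Camk2a libraries. This reverse of the order of Sox2 rested on Slc1a2, with 103 and 159 CPM in Gad2 and 511 and 527 CPM in Camk2a libraries. Aldoc, Gja1 and Aqp4 took the order of Sox2, and Fgfr3 and Aldh1l1 the reverse. Gfap and Gjb6 overlapped, and Aldh1l1 had no count in either Gad2 library. The 5 oligodendrocyte precursor markers summed to 3.17 and 5.26 CPM in Gad2 libraries and 4.49 and 5.46 CPM in Camk2a libraries, and the 5 ependymal markers, in the order of Sox2, to 42.8 and 47.3 CPM and to 25.4 and 19.1 CPM. Fabp7 and Pax6 had 2 counts each over the Gad2 libraries, and Vim had 6. Sox2ot, a longer RNA that overlaps Sox2 and was looked at after the Sox2 values were seen, had 7.93 and 6.31 CPM in Gad2 libraries, 0.50 and 1.64 CPM in Camk2a libraries and 7.49 and 6.29 CPM in Gfap libraries, from 1 to 11 counts a library. Reads of the 2 overlapping genes cannot be separated here.

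**Figure D3:**
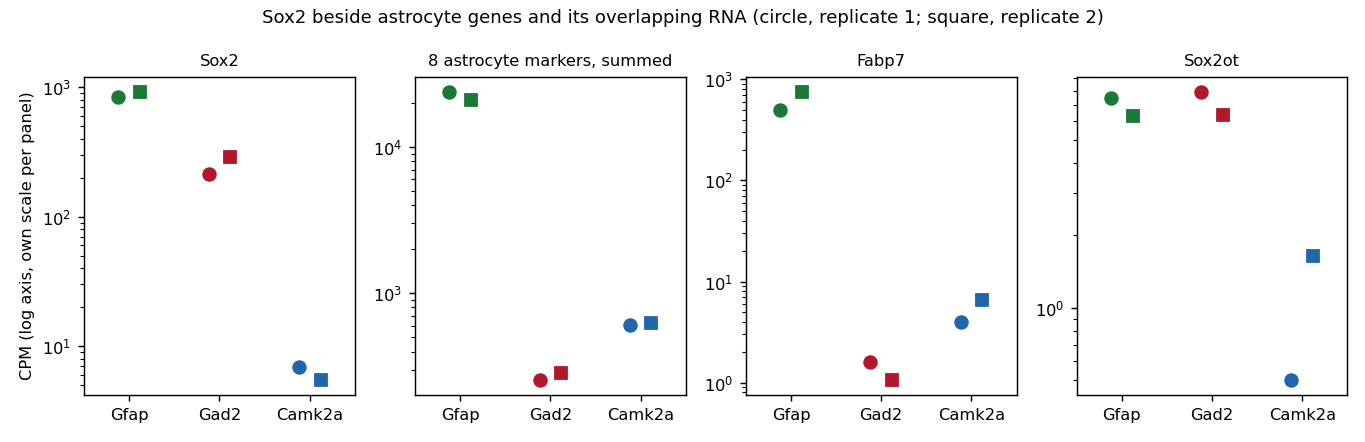
CPM on a log axis (each panel with its own scale) of Sox2, of the sum of 8 astrocyte markers, of Fabp7 and of Sox2ot in each cortical library, with circles for replicate 1 and squares for replicate 2. Sox2 and Sox2ot are higher in Gad2 than in Camk2a libraries. The sum of astrocyte markers (254 to 286 against 611 to 629 CPM, in Camk2a libraries mostly Slc1a2) and Fabp7 are lower.

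Other genes of the same stages were read from lists. Of 14 other radial glia genes 13 were tested, and all 13 were higher in Gfap libraries than in neurons, beside 31.3% of all genes. Their median log2 difference was 6.24, beside 0.00 for all genes. Genes near 0 in neurons could pass the filter through the Gfap libraries alone, which fixes their direction. Of the 14, Gli3 had no count in either neuronal group and Tnc none in Camk2a libraries. By p-value they were led by the glutamate transporter Slc1a3 (8.04, SE 0.29, adjusted p = 1.42e-13), the receptor phosphatase Ptprz1 (6.24) and the receptor Notch1 (6.80). Of 10 other intermediate progenitor genes 5 were tested and 1 was higher, Gadd45g (3.00, adjusted p = 1.11e-09), while none was lower. The list's median was 0.63. Of 15 other newborn neuron genes 11 were tested, and they went both ways: Igfbpl1 (5.76), the transcription factor Sox11 (2.20), Cd24a (2.71) and Marcksl1 were higher, and Crmp1 (-3.23), Tmsb10 (-2.44) and Nrep (-1.28) lower, with a median of -0.51.

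Among relatives of the members, 1 of 8 tested tubulins was higher in Gfap libraries, Tubb2b (5.66, adjusted p = 1.47e-05), and 4 were lower, led by Tuba4a (-1.37), Tuba1b (-1.46) and Tubb4a (-0.93). All 3 other stathmins were lower, Stmn3 (-3.30), Stmn1 (-1.55) and Stmn4 (-1.34). Of 4 other intermediate filament genes tested, Gfap itself was higher (8.63), and the neurofilament genes Nefm (-4.00) and Nefh (-4.11) and Synm (-2.38) were lower. Of the other 2 fatty acid-binding genes, Fabp5 was higher (3.64) and Fabp3 lower (-3.68). Of 6 cell division genes 3 were tested and 2 were higher, Top2a (6.46, adjusted p = 2.23e-06) and Pcna (1.57, adjusted p = 0.0467), at 16.7 and 5.65 normalised CPM. Top2a had no count in the Gad2 libraries. All 7 tested mature neuron genes were lower, with a median of -3.30. Beside these counts, 31.3% of all genes tested were called higher in Gfap libraries and 29.3% lower.

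Between Camk2a and Gad2 libraries, 2 of the 13 radial glia genes were higher in Camk2a libraries, Lhx2 (3.73) and Emx2 (3.71), and 4 were lower: Sox1 (-6.15), Hopx (-1.65), Id4 (-3.33) and Ptprz1. The shares of all genes called were 11.6% higher in Camk2a libraries and 9.6% lower. Sox1, a relative of Sox2, had 44.1 normalised CPM in Gad2 libraries and 0.49 in Camk2a libraries (adjusted p = 1.51e-07). A gene this near 0 in Camk2a libraries could only come out lower there. Of the newborn neuron genes, Neurod1 (5.13), Tmsb10 (1.46) and Dclk1 (0.74) were higher in Camk2a libraries and Cd24a (-3.88) lower. Of the intermediate progenitor genes Dll1 was lower (-1.88). The tubulins Tubb4b (1.38) and Tuba4a (1.00), the stathmins Stmn1 (1.85) and Stmn4 (1.41) and the neurofilament gene Nefm (2.34) were higher in Camk2a libraries, and Nefh was lower (-0.97).

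Genes with the most similar profile were ranked by the Pearson correlation of log2(CPM + 1) over the 14 tagged brain PAPERCLIP libraries among 7495 genes, as a description of libraries that share cell type and depth. For Tubb3 they were Mllt11 (r = 0.979), Paqr9 and Snap25 (both 0.976), for Dcx Tarsl2 (0.983), Wdr17 (0.981) and Enox1 (0.963), and for Tuba1a Pcdh20 (0.985), Cdh10 and Npdc1 (both 0.980). For Fabp7 they were Nwd1 (0.969), Aldh7a1 (0.966) and Car8 (0.956), for Vim Pla2g16 (0.974), Axl (0.967) and S100a13 (0.958), and for Pax6 3110082J24Rik (0.985), Pdzph1 and Pcsk6 (both 0.980). Sox2 was most like Timp3 (0.965), Abtb2 (0.958) and Mtss1l (0.941), and Timp3 too was ordered Gfap, Gad2, Camk2a, with mean levels of 2353, 165 and 10.3 CPM.

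In the knockout cortex Ptbp2, which encodes a splicing regulator of young neurons, was still counted at 36.7, 28.5 and 26.3 CPM in replicates 1 to 3, and its relative Ptbp1 at 45.7, 43.6 and 34.2 CPM. The files hold counts per gene and do not show which exons were deleted, so these values do not check the labels. The libraries held 27141384, 27415288 and 19446610 counts. Replicate 3 stood apart from the other two: over genes, chi-square per degree of freedom was 75.5 and 76.9 against replicates 1 and 2, and 6.67 between those 2. With the fewest counts, it had 37123 genes with a count, against 29970 and 30850 in replicates 1 and 2.

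All 10 members were read in every knockout library, and together they took 0.942%, 0.921% and 1.01% of the counts. Of the progenitor transcription factors, Pax6 had 28.6, 32.9 and 25.6 CPM (29.0 ± 3.67, SD, n = 3), Sox2 had 46.7, 50.6 and 39.6 CPM (45.6 ± 5.56, n = 3) and Eomes had 15.2, 23.1 and 14.7 CPM (17.7 ± 4.68, n = 3). Eomes varied most of the members, with a coefficient of variation of 26.5%, and its high library was replicate 2. Nes had 109.9, 116 and 104 CPM, Vim 198, 183 and 158 CPM, and Fabp7 452, 551 and 450.5 CPM. Replicate 3 was the lowest library for all 6 of these progenitor genes, though for Fabp7 and Eomes it was nearly level with replicate 1.

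Dcx and Stmn2, of the newborn neuron genes, varied least of the members. Dcx had 1715, 1676 and 1684 CPM (1692 ± 20.7, SD, n = 3), a coefficient of variation of 1.22%, and Stmn2 had 540.0, 555 and 550.1 CPM, with 1.40%. Tubb3 had 1393, 1419 and 1493 CPM (coefficient of variation 3.61%), and Tuba1a 4923, 4605 and 5555 CPM (5028 ± 484, n = 3), with 9.63%, above the 5.47% of Nes. Tubb3 and Tuba1a were highest in replicate 3, the library that was lowest for the progenitor genes.

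**Figure D4:**
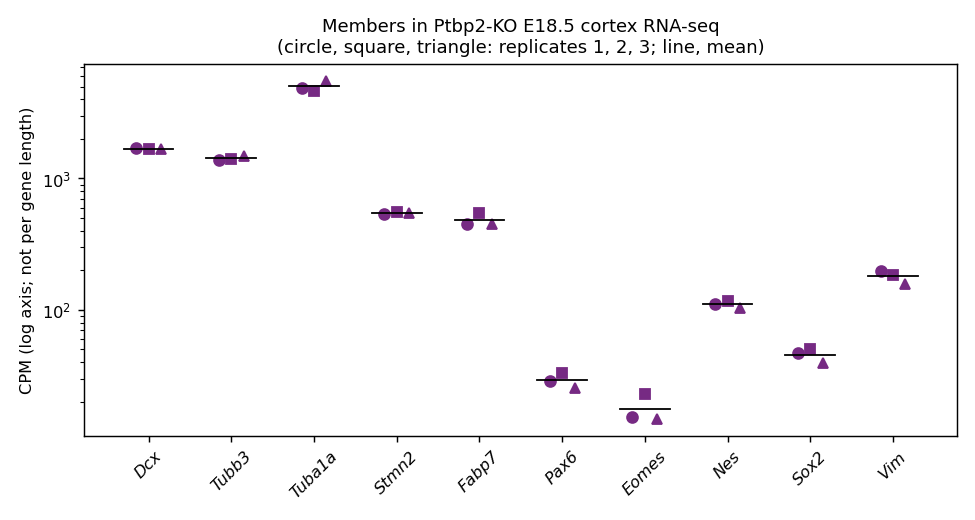
CPM of the 10 members in the 3 Ptbp2-knockout E18.5 cortex libraries on a log axis, with circles, squares and triangles for replicates 1, 2 and 3 and a line at the mean. Libraries lie close together for Dcx and Stmn2, and Eomes is spread from 14.7 to 23.1 CPM.

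Other genes of these stages were present in the same libraries. The 3 radial glia genes with most counts were Ptprz1 (789 ± 36.5 CPM, SD, n = 3), the matrix protein gene Tnc (310.4 ± 67.5) and Slc1a3 (225 ± 28.4). The 3 such intermediate progenitor genes were Hes6 (32.4 ± 3.70), Insm1 (25.8 ± 2.23) and Dll1 (18.9 ± 0.68), and the 3 newborn neuron genes Dpysl3 (2128 ± 184), Sox11 (1372 ± 68.3) and Cd24a (837 ± 102). The proliferation genes Top2a (118 ± 5.47), Mki67 (106 ± 11.2) and Pcna (65.4 ± 2.38) were counted too. Markers of other tissue were also there: 5 red blood cell markers summed to 397 to 469 CPM and 8 vascular and fibroblast markers to 273 to 429 CPM, lowest in replicate 3 as well. The 6 inhibitory neuron markers summed to 341 and 329 CPM in replicates 1 and 2 and to 207 CPM in replicate 3, while the 6 excitatory neuron markers were highest there (812, 806 and 1010 CPM). The 4 hepatocyte markers, nearly all Ttr, which choroid plexus also makes, summed to 636, 24.7 and 186 CPM. Their part in the spread of the members was not tested.

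Mitochondrial genes took 15.2% to 15.5% of the knockout counts, of which mt-Rnr2, a mitochondrial ribosomal RNA, made 13.1% to 13.4% of all counts. Beside the cortical PAPERCLIP libraries some members were higher here and some lower. Nes had at most 1 count in a cortical library and 104 to 116 CPM here, and Dcx 11.2 to 40.0 CPM and 1676 to 1715 CPM. Beside the Gfap libraries, Sox2 had 833 to 922 CPM and 39.6 to 50.6 CPM here, Vim 425 to 547 and 158 to 198 CPM, and Pax6 42.9 to 48.7 and 25.6 to 32.9 CPM. Age, genotype and assay differ together between these sets, so no test was made, and their parts cannot be told apart.

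In the untreated Cx3cr1 libraries the members were low. They took 18 and 14 counts in all, 0.0116% and 0.0105% of totals of 154959 and 133456. Dcx, Pax6, Eomes, Nes and Sox2 had no count, where 3 counts would be 19.4 and 22.5 CPM. Against 3 counts over the group, Sox2 was at least 90.0-fold higher in Gfap libraries and at least 22.5-fold higher in Gad2 libraries. For Pax6 in Gfap libraries the limit was 4.50-fold. For Dcx it was 1.22-fold in Gfap, 3.31-fold in Gad2 and 2.80-fold in Camk2a libraries. For Sox2 in Camk2a libraries (0.54) and Eomes in Gfap libraries (0.28) it was under 1, so these zeros show no difference. Vim had 45.2 and 22.5 CPM, above the neuronal libraries (at most 6.31 CPM) and below the Gfap libraries (425 and 547 CPM). Fabp7 had 6.45 and 30.0 CPM, from 1 and 4 counts, and overlapped in CPM with the Camk2a libraries (3.99 and 6.55 CPM).

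Against the 3 cortical groups, averaged on the log scale, 5 of the 8 tested members were lower in the untreated Cx3cr1 libraries and none higher: Dcx, Sox2, Tubb3 (-3.65, SE 0.42, adjusted p = 7.53e-07), Tuba1a (-2.55, SE 0.40, adjusted p = 3.63e-05) and Stmn2 (-4.72, SE 0.78, adjusted p = 5.92e-05). In the untreated Cx3cr1 libraries Dcx and Sox2 had no count and Stmn2 had 1 count. They passed the filter through the cortical libraries alone and could only come out lower, and no size is given for Dcx and Sox2. The shares of all genes called were 21.8% higher and 28% lower, around a median log2 difference of -0.48. Vim had 36.4 normalised CPM in untreated Cx3cr1 libraries and a mean of 181 over the cortical ones. Its log2 difference was still positive (1.32, SE 0.67, adjusted p = 0.109), because the average of logs gives the near-zero neuronal groups equal weight with the Gfap group. It passed the test with DESeq2 (1.38, adjusted p = 0.0444) and without Gad2 replicate 2 (2.88, adjusted p = 0.0282), and neither call places Vim above the Gfap libraries. Whole brain against cortex cannot be told apart from the cell type in this comparison.

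Of the members that passed the filter in microglia, Vim rose after LPS. In RNA-seq it had 86.1, 78.1 and 108 CPM after PBS and 346, 316 and 286 CPM after LPS. The groups did not overlap, and the log2 change was 1.90 (SE 0.12, adjusted p = 1.66e-06). In Cx3cr1 PAPERCLIP libraries it had 21.7, 30.0 and 32.6 CPM after PBS and 82.6, 92.8 and 77.8 CPM after LPS. These did not overlap either, and the log2 change was 1.55 (SE 0.29, adjusted p = 0.00785), which missed the threshold without PBS replicate 1 (adjusted p = 0.0693). Vimentin is known as a filament of migrating and activated cells well beyond neural progenitors. LPS called 15.9% of 10267 genes higher and 10.4% lower in RNA-seq, 60.4% of all calls being higher, against 43.9% with scaling by total counts only, which moved the median of all genes to -0.13. In PAPERCLIP 2.74% of 5692 genes were called higher and 0.791% lower.

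Tuba1a and Nes fell in microglial RNA-seq. Tuba1a had 76.2, 58.2 and 46.2 CPM after PBS and 26.1, 32.3 and 21.6 CPM after LPS, without overlap (log2 change -1.05, SE 0.22, adjusted p = 0.0042). Nes had 39.6, 47.0 and 62.2 CPM after PBS and 17.0, 13.1 and 29.6 CPM after LPS, also without overlap (-1.27, SE 0.27, adjusted p = 0.00422). Nestin is also known from endothelium and pericytes, and the 8 vascular and fibroblast markers summed to 337 to 728 CPM after PBS and 187 to 381 CPM after LPS, all 8 detected. Of the 5 of them that were tested Flt1 fell (-1.50, adjusted p = 0.0188) and the other 4 were not called, and their part in the change of Nes was not tested. Among other tubulins Tubb5 (1.25, adjusted p = 7.93e-05) and Tuba1c (1.35, adjusted p = 0.0372) rose and Tubb2b fell (-1.55, adjusted p = 0.0025). In PAPERCLIP Tuba1a changed by -0.18 (SE 0.35, adjusted p = 0.853), and Nes had 2 counts after PBS and 6 after LPS.

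Eomes was scarce in microglial RNA-seq, with 2, 1 and 2 counts after PBS and 7, 14 and 6 counts after LPS, or 0.99, 0.80 and 1.14 CPM and 4.56, 6.56 and 4.80 CPM. It did not pass the filter. In a fit without the filter it was higher after LPS (2.48, SE 0.67, adjusted p = 0.0025). Eomes is also a known regulator of natural killer cells and T cells, and 10 markers of these lymphocytes, chosen after the Eomes values were seen, summed to 12.9 to 18.3 CPM after PBS and 137 to 276 CPM after LPS. Cd3e, Cd3g, Cd8a and Trbc2 had no count after PBS and stayed scarce after LPS, at 0 to 4 counts a library. All 10 were detected after LPS, and 6 of 6 tested rose, among them Gzma (4.48) and Ncr1 (2.99), beside 15.9% of all genes. Genes this scarce after PBS could pass the filter through the LPS libraries alone, which fixes their direction. The part of such cells in the change of Eomes was not tested.

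Tubb3 in Cx3cr1 PAPERCLIP libraries had 61.6, 30.0 and 249 CPM after PBS and 33.6, 25.0 and 53.0 CPM after LPS. The groups overlapped, the PBS mean rested on replicate 3, and the log2 change was -1.66 (SE 0.54, adjusted p = 0.126). Without PBS replicate 3 it was -0.31 (adjusted p = 0.820). With the replicate number as a block it was called lower (-1.47, adjusted p = 0.00360), and it was also called lower without the filter. In PBS replicate 3 the 8 mature neuron genes summed to 2801 CPM, against 484 and 551 CPM in the other PBS libraries, and 4 hepatocyte markers to 1830 CPM against 10.9 and 11.3 CPM. In isolated microglia Tubb3 had 2 counts after PBS and 1 after LPS.

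**Figure D5:**
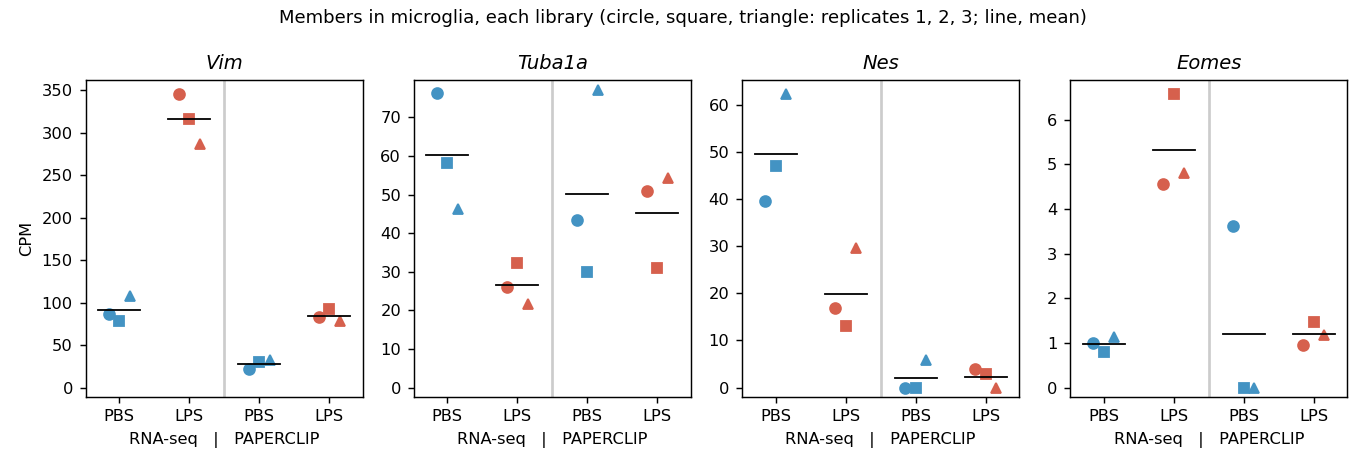
CPM of Vim, Tuba1a, Nes and Eomes in each microglial library after PBS (blue) and LPS (red), RNA-seq to the left of the grey line and Cx3cr1 PAPERCLIP to the right, with circles, squares and triangles for replicates 1, 2 and 3 and a line at the mean. Vim is higher after LPS in both assays, and Tuba1a and Nes are lower after LPS in RNA-seq.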

How the data were processed

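For 15 PAPERCLIP and 9 RNA-seq libraries, the values that the authors deposited are raw read counts of genes, and nothing was rescaled before testing. The submitters' processing notes name the build mm10, the aligner STAR (RNA-seq), and Novoalign with cutadapt (PAPERCLIP). Tool versions, handling of barcode duplicates, read assignment and strand use: not given in the sources used here. Per the labels' protocols, PAPERCLIP linkers carried a random barcode, microglial RNA was selected for poly(A), and knockout cortex RNA was depleted of ribosomal RNA. The labels call only the knockout libraries biological replicates, so p-values elsewhere measure the spread between libraries, which may be technical. Replicates differed by more than sampling noise, with chi-square per degree of freedom of 2.10 to 76.9 over genes with at least 10 counts, so none was counted as a duplicate.

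Groups came from sample titles. Members and lists were chosen with earlier results of these data known. Of the RNA-seq identifiers 46488 matched a gene name table, and positions are those of a GRCm38 table. Genes kept by filterByExpr were tested in R 4.3.3 with the quasi-likelihood test of edgeR 4.0.16 after TMM scaling, and p-values were adjusted over every tested gene by Benjamini-Hochberg, with a threshold of 0.05. There was 1 fit of the 8 untreated tagged libraries and 1 fit for each LPS comparison. A log2 difference and its SE come from these fits, and normalised CPM from TMM-scaled totals. Simulated counts were used to check each fit. Ratios of low counts have 95% exact binomial intervals, and a group without a count was set to 3 counts over the group. Such a limit takes the count of the other group as exact.

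All members are named. Of each other list, up to 3 genes in each direction with the smallest p are named, and in the knockout the 3 with the highest mean. Like profiles used genes with at least 20 CPM in 1 cortical group. Those of Stmn2 are not reported here. Pairing was checked by correlating library deviations (library minus its group mean, genes of at least 20 CPM). The 3 same-numbered pairs of the LPS comparison in PAPERCLIP gave 0.131, 0.239 and 0.189, so these look paired, from the data alone. The labels name no pairing, and the reported LPS fits leave it out. A fit with the replicate number as a block is given as an alternative. Alternatives were RLE or total scaling, DESeq2 1.42.0, dropping the filter or setting it to 5 CPM, a replicate block, the 6 cortical libraries alone, other totals for the knockout and leaving out each library. Marker sums and the lymphocyte list were added after the data were seen.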

Additional observations from a re-analysis of the deposited data

Results flagged for a closer look

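Vim in the liver library had 5 counts, or 43.2 CPM, in the only tissue outside the brain and the only group with 1 library. It was singled out because no comparison uses this library and its count is above the 3 counts (25.9 CPM) that a count of 0 allows. The other members had 0 or 1 count there. The 4 hepatocyte markers summed to 72468 CPM and the 8 vascular and fibroblast markers to 1858 CPM in this library, and there is no replicate to judge the value by.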

How the results depend on the processing

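Of 552 values of members under an alternative, 525 kept their direction and their side of the threshold, 7 passed it where the reported fit did not, 6 lost it, and 14 changed sign, all of members not called in either fit. Tuba1a in Gfap against Camk2a (0.04) was -0.0030 with RLE scaling, -0.18 with total counts, -0.0044 with DESeq2, -0.013 without the filter and -0.20 to 0.22 with 1 library left out. Fabp7 in untreated Cx3cr1 against cortex (0.14) was -0.067 without the filter and -1.23 to 0.67 with 1 library left out. With 1 library left out, Camk2a against Gad2 gave -2.52 to 3.75 for Vim and -0.54 to 0.017 for Dcx, and LPS in PAPERCLIP -0.41 to 0.30 for Tuba1a. For Gfap against neurons, 4 members were higher and 3 lower under all alternatives run, except that 5 were higher without the filter, Eomes among them. For Camk2a against Gad2, leaving out 1 library gave 1026 to 1209 genes called, beside 2001, and 0 to 1 members higher, and the 6 cortical libraries alone gave 2 members lower. For untreated Cx3cr1 against cortex, 1 member was higher with DESeq2, and 0 to 1 when 1 library was left out. For LPS in PAPERCLIP, 201 genes were called, 632 without the filter and 74 to 167 with 1 library left out, where 0 to 1 members were higher. Without the filter 1 member was lower, Tubb3. For LPS in RNA-seq, DESeq2 called 1781 genes and edgeR 2706, and 2 members were higher without the filter. The cause was not tested. With the replicate block, LPS in PAPERCLIP gave 423 genes called and 1 member lower, Tubb3, and no other call of a member changed. In LPS RNA-seq, same-numbered libraries correlated at 0.115, 0.0981 and 0.194, and the block gave 2770 genes called. Knockout levels moved by more than 1 SD for 9 members when mitochondrial and haemoglobin genes were left out of the total (Dcx 1999 against 1692 CPM). Scaling by total counts moved the median of Gfap against neurons to -0.21. Depth limits Eomes, Nes and the Cx3cr1 zeros.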
